A study of Mus musculus with 14 samples.

Results

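The regions described here are the 21 of 191271 deposited accessible regions that overlap chr15:74460000-74540000 (mm9), an 80 kb window around Arc. They were taken by position alone, and all 21 passed the filter on low values. Arc lies at about chr15:74499500-74503000 on the minus strand, so positions above 74503000 are upstream of its start. The 14 libraries are assay for transposase-accessible chromatin (ATAC-seq) libraries, where a transposase inserts adapters into open chromatin, from sorted neuronal nuclei of mouse hippocampus.

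All groups share the strain ArcCreERT2 x R26R-STOP-floxed eYFP with the genotype label +/+, housing in the dark before the task, one dose of 4-hydroxytamoxifen 1 h before contextual fear conditioning, and a foot shock on day 0. Basal (n = 4) and Early (n = 3) carry the same treatment label, no recall and collection on day 0, for which the labels' protocol gives 1.5-2 h after the task, and they differ in their titles only. The protocol also gives 48 h in the dark afterwards, which is longer than the time to collection on day 0. Late (n = 4) was collected on day 5 without recall. Reactivated (n = 3) met the fear cue again on day 5 (recall), with collection labelled as days 5, 6 and 7 for replicates 1, 2 and 3. Hippocampi of 10-12 mice were pooled to reach 10000 nuclei, and the labels do not tie libraries to mice, so the tests see the scatter among libraries, some of which may be technical.

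Arc encodes an activity-regulated cytoskeletal protein that is made within minutes of strong synaptic input and acts in the removal of AMPA receptors from synapses. Its transcription is driven by its promoter and by an upstream enhancer, the synaptic activity-responsive element, which lies about 7 kb before the start and is bound by CREB, MEF2 and SRF. Because Arc follows neuronal activity so closely, its regulatory DNA is used in mice to label active cells, as in the strain used here. Reads from the driver's own copy of Arc DNA map to the same place as those of the native gene, and the labels do not say whether the driver replaces a copy of Arc or was added elsewhere. Nuclei were stained for NeuN, Arc and GFP before sorting. The gate of each group is not in the labels, so a group's nuclei may have been chosen by the product of the gene described here. Neuronal marker loci were not analysed here.

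Some properties of whole libraries touch all results that follow. On average 15.7% ± 2.71 (SD) of Basal reads fell inside regions, and the means were 19.9% ± 7.15 for Early, 19.2% ± 0.653 for Late and 23.1% ± 1.54 for Reactivated. Early replicate 2 stood apart at 27.8%. The highest region of any kind held between 0.635 and 0.738 reads per base in Late and between 2.14 and 9.75 in the other 10 libraries, so the top of the range is compressed in Late. Read totals recovered from the values were 46134255 to 47375214 per library in Late and 54257224 to 56251679 in the other 10. Depth thus goes with the Late group, and its part in the results was not tested. The 21 regions together held 2411 to 5584 reads per library.

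In Basal, Early and Reactivated the 2 highest group means lay at the Arc start and at the place of the upstream enhancer, and in Late the highest, 5.68 RPKM (reads per kilobase of region per 1000000 reads of the library), lay 8.5 kb downstream of the start. The start-site region, chr15:74502575-74504716, is 2141 bases long, the longest of the 21, and covers the first 425 bases of the Arc interval and 1716 bases upstream of it. No other region overlaps the Arc interval. The region nearest to the 7 kb point, chr15:74509221-74510117, is 896 bases long and begins 6.22 kb upstream of the start. It is called the enhancer region here, from its place alone. Between them lies chr15:74506856-74508121, centred 4.5 kb upstream. The 21 regions had a median length of 714 bases, against 520 for all deposited regions. The promoter table used for sequences (RefSeq, GRCm38.p6) had no matching entry for Arc. In the RefSeq gene table of that build, the next annotated gene on the downstream side is Mroh4, then Adgrb1. On the upstream side the next are the long non-coding RNA Gm32994 and the gene Jrk. An annotation of mm9 was not used here, so regions are not assigned to these genes.

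**Figure D1:**
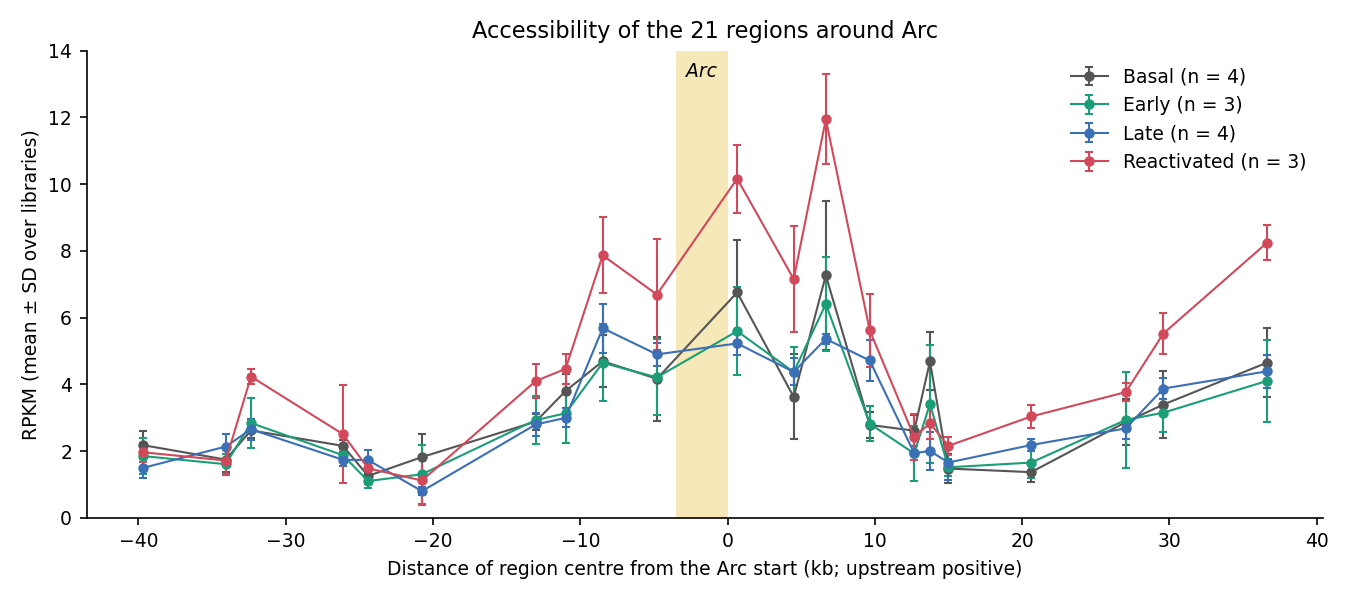
Mean RPKM of the 21 regions, with bars of 1 SD over libraries, against the distance of each region's centre from the Arc start in kb. Upstream is to the right, the shaded band is the Arc interval, and lines only join the points of a group. The tallest points are the start-site region and the enhancer region, at 10.2 and 11.9 RPKM in Reactivated.

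At the start-site region, the 4 Basal libraries had 8.91, 5.58, 5.58 and 6.96 RPKM (replicates 1 to 4), and the 3 Early libraries 4.11, 6.04 and 6.63. The 4 Late libraries had 5.20, 5.44, 5.54 and 4.73 RPKM, and the 3 Reactivated libraries 11.03, 9.05 and 10.4. Every Reactivated library was above every other library, while Early overlapped Basal and Late, and the highest Late library lay just under the lowest Basal one. Group means were 10.2 ± 1.02 RPKM in Reactivated (SD, n = 3), 6.76 ± 1.58 in Basal (n = 4), 5.595 ± 1.31 in Early (n = 3) and 5.23 ± 0.360 in Late (n = 4). In this order only the step from Reactivated to Basal was free of overlap between neighbours. In such bulk samples, more nuclei with an open site and a more open site in each nucleus cannot be told apart. The values rest on 476 to 1328 reads per library, for which counting error alone is 4.58% to 2.74%.

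The enhancer region followed the same order of groups. It had 10.2, 5.55, 5.49 and 7.84 RPKM in Basal replicates 1 to 4 and 5.06, 6.31 and 7.86 RPKM in Early replicates 1 to 3. In Late it had 5.50, 5.44, 5.16 and 5.34 RPKM, the tightest group, and in Reactivated 13.25, 10.6 and 12.0. All Reactivated libraries were again above all others, by a narrow margin over Basal replicate 1, which had the highest share of reads in regions within Basal (19.3%). The means were 11.9 ± 1.35 RPKM in Reactivated, 7.27 ± 2.24 in Basal, 6.41 ± 1.40 in Early and 5.36 ± 0.151 in Late. The region between them, centred 4.5 kb upstream, had 8.81, 5.64 and 7.02 RPKM in Reactivated, 3.87 to 4.86 in Late, 3.54 to 5.01 in Early and 2.64 to 5.42 in Basal. There too the Reactivated libraries were above all others, but Basal had the lowest mean.

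**Figure D2:**
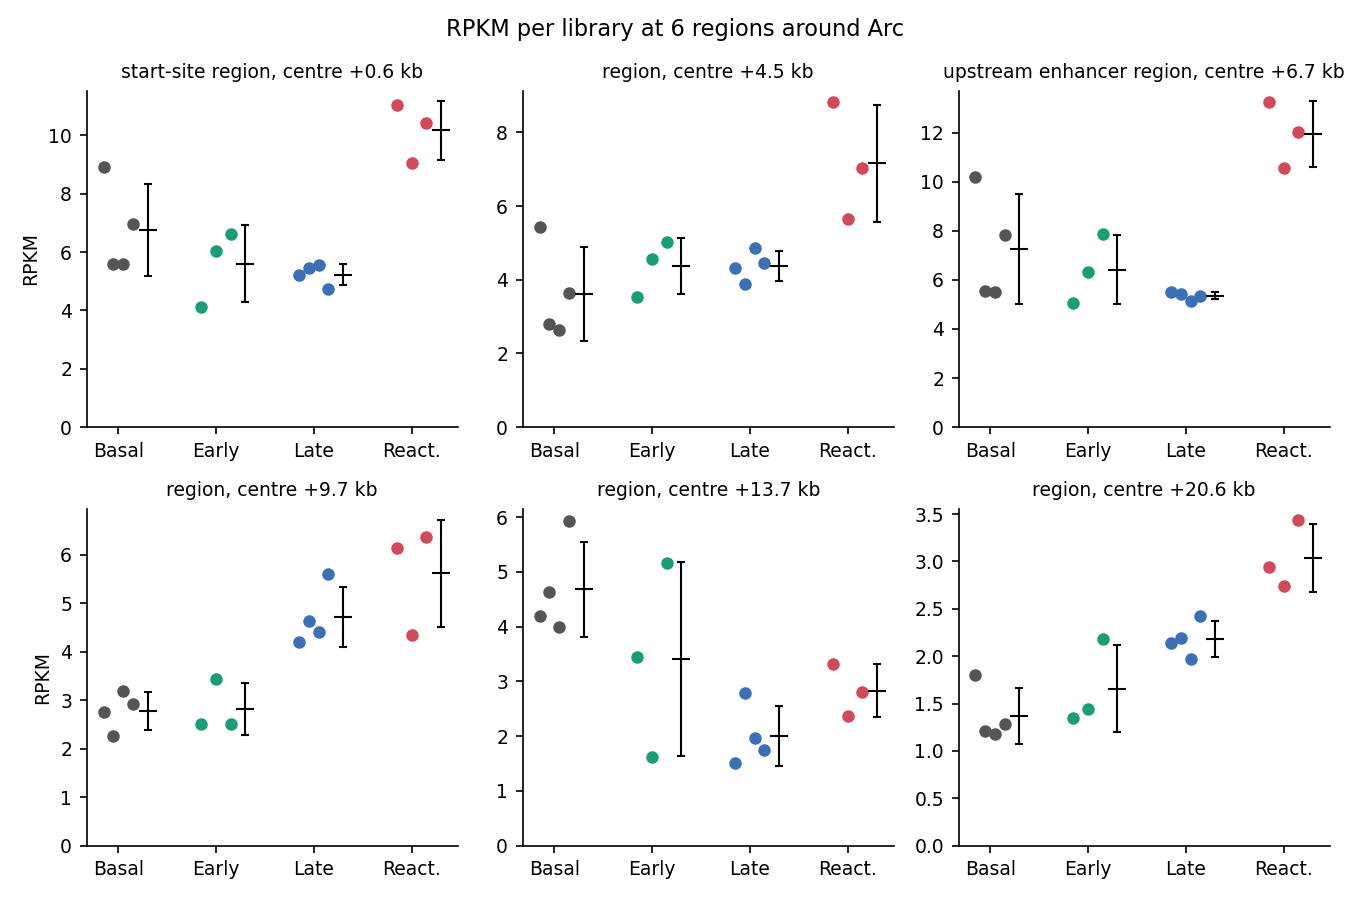
RPKM of each library (points, replicates in order from left to right) with the group mean and 1 SD (black) at 6 of the 21 regions, named by the distance of their centre from the Arc start. In the start-site, +4.5 kb, enhancer and +20.6 kb panels every Reactivated point lies above all points of the other groups, and at +13.7 kb the Basal points lie above those of Late and Reactivated.

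Reactivated against Late asks what differed after the fear cue was met again. The mean log2 fold change was above 0 at 19 of the 21 regions, and at 12 of them all Reactivated libraries were above all Late libraries. Across the 172143 regions tested, 13.5% showed such a separation upward and 5.03% downward. No region around Arc passed the test (limma on log2(RPKM + 0.5), Benjamini-Hochberg adjusted over all regions, threshold 0.05), where 0.231% of all regions did. At an unadjusted p under 0.05 there were 5 of the 21, and the share of all regions at that threshold was not counted, here or below. By limma voom on recovered reads 0 of the 21 passed, where 0.162% of all regions did. The fold changes are on the log2(RPKM + 0.5) scale, which understates changes of low regions.

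The enhancer region had the largest fold change of the 21, 2.12-fold (log2 1.08 ± 0.29 SE, limma adjusted p = 0.171), a size exceeded by few regions, at percentile 99.75 of all tested. The start-site region stood at 1.86-fold (log2 0.89 ± 0.28 SE, adjusted p = 0.258), at percentile 99.11. Next came chr15:74539051-74540230, centred 36.6 kb upstream at the border of the window, with 7.89, 8.00 and 8.86 RPKM in Reactivated against 3.93 to 4.85 in Late (log2 0.84 ± 0.27 SE, adjusted p = 0.271). The region at 4.5 kb had a log2 fold change of 0.63 ± 0.28 SE (adjusted p = 0.396). The median over the 21 was 0.43, against 0.09 for all regions tested.

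These sizes depend on what the regions are set beside. Among the 1722 tested regions in the top 1% by mean RPKM, which include 6 of the 21, the median log2 fold change of Reactivated against Late was 0.85, and 1712 were above 0. Within them the start-site region stood at percentile 58.3 and the enhancer region at 85.02. Under quantile normalization, which leaves just the ranks within each library, the start-site region's log2 fold change turned to -0.01 and the enhancer region's was 0.12 (adjusted p = 0.977 and 0.791). With only the Late and Reactivated libraries in the fit, 5 of the 21 passed, where 3.9% of all tested regions did, among them the enhancer region (limma adjusted p = 9.3e-05) and the start-site region (0.000457). After median-of-ratios scaling 3 passed, where 1.13% of all did, and without Early replicate 1 it was 1, where 0.366% of all did. The compression of high values in Late moves with this comparison, and its part in it was not tested.

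The rank of a region within its own library does not use the library's scale. Near the top of the list a rank has little room to rise, so overlap there does not show that accessibility was unchanged. The start-site region stood at percentiles 99.71 to 99.88 of all 191271 regions in the Basal libraries, 99.66 to 99.86 in Late and 99.79 to 99.80 in Reactivated. The enhancer region stood at 99.78 to 99.87, 99.73 to 99.87 and 99.88 to 99.90. The start-site ranks of the 3 groups overlapped, and the enhancer ranks overlapped between Basal and Late, with Reactivated just above them. Early replicate 2 was the exception, with both regions lower in its list, at 97.46 and 97.80, while Early replicates 1 and 3 stood at 99.59 to 99.85.

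**Figure D3:**
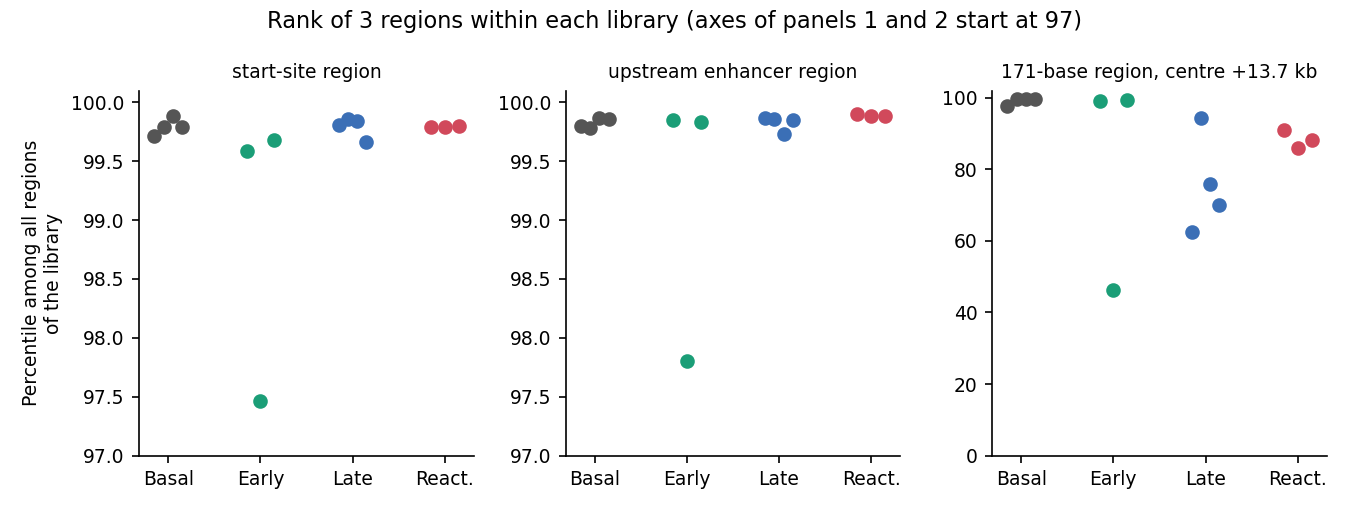
Percentile of 3 regions among all regions of each library, by group; the vertical axes of the first 2 panels start at 97 and that of the last at 0. The start-site and enhancer regions stay above 99.5 in 13 of 14 libraries, the exception being Early replicate 2, while the short region in the last panel lies at 97.59 to 99.65 in Basal and 62.42 to 94.33 in Late.

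Another measure free of the library's scale is the share of the reads in the 21 regions that falls in one of them. The start-site region took 24.0% ± 0.326 of these reads in Reactivated (SD, n = 3), 24.3% ± 1.19 in Basal (n = 4), 21.8% ± 2.49 in Early (n = 3) and 19.9% ± 1.48 in Late (n = 4). For the enhancer region the shares were 11.8% ± 0.157, 10.8% ± 1.37, 10.5% ± 0.283 and 8.57% ± 0.472. Both mean shares were smallest in Late. A share does not cancel the compression of high values in Late, and the part of that compression here was not tested. The log2 ratio of the start-site to the enhancer region was -0.22 ± 0.03 in Reactivated, -0.08 ± 0.11 in Basal, -0.19 ± 0.11 in Early and -0.04 ± 0.11 in Late. It differed most between Reactivated and Late, by -0.19, with all 3 Reactivated libraries below all 4 Late libraries. The 2-sided exact permutation test gave p = 0.0571, and 3 libraries against 4 cannot give less (Benjamini-Hochberg adjusted p = 0.171 over 6 comparisons). Against Basal the Reactivated ratio differed by -0.14, with the same p and adjusted p (0.0571 and 0.171, exact permutation test). The other 4 comparisons of the ratio had exact permutation p of 0.171 to 0.9, where 3 against 3 libraries cannot go below 0.1 and 4 against 4 can reach 0.0286.

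Reactivated was also set beside Basal, which, like Early, was collected on the conditioning day. Here 4 of the 21 regions passed, all higher in Reactivated, where 29.1% of all tested regions passed, 24.3% as higher and 4.78% as lower. This direction depends on the scaling. After median-of-ratios scaling 2 of the 21 passed, 1 higher and 1 lower, where 8.77% of all regions were called higher and 10.9% lower. Under quantile normalization none of the 4 was called, and the 1 region that passed, chr15:74516653-74516824, was lower in Reactivated (log2 -1.01, limma adjusted p = 0.0417), where 16.3% of all regions passed. The largest change of the 21 was at chr15:74522683-74524534, a 1851-base region centred 20.6 kb upstream. By fold change this region stood at percentile 88.83 of all tested, a size that many regions exceeded. It had 2.94, 2.74 and 3.44 RPKM in Reactivated and 1.80, 1.21, 1.17 and 1.28 in Basal, a 1.90-fold difference without overlap (log2 0.93 ± 0.23 SE, limma adjusted p = 0.00825). Its Late libraries, at 1.97 to 2.43 RPKM, lay between the other groups, and Early spanned 1.34 to 2.18.

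The region at 4.5 kb rose 1.89-fold over Basal (log2 0.92 ± 0.28 SE, limma adjusted p = 0.0206). That at 36.6 kb rose 1.72-fold (log2 0.78 ± 0.27 SE, limma adjusted p = 0.0362), with 4.65 ± 1.03 RPKM in Basal and 8.25 ± 0.534 in Reactivated. The fourth was chr15:74512541-74512761, 220 bases long and centred 9.7 kb upstream, just beyond the enhancer region. It had 2.76, 2.26, 3.18 and 2.93 RPKM in Basal and 6.14, 4.36 and 6.37 in Reactivated, a 1.85-fold rise (log2 0.89 ± 0.25 SE, limma adjusted p = 0.0154). The regions at 4.5, 36.6 and 9.7 kb stood at percentiles 88.47, 81.29 and 87.02 of all tested by fold change, so larger rises were common. All 4 lie upstream of Arc, but the sides were not compared by a test. Downstream, chr15:74494283-74494755 had a log2 fold change of 0.69 (limma adjusted p = 0.0572), and it passed, with chr15:74470433-74470846 and chr15:74497936-74498470, without Basal replicate 1, Early replicate 1 or Early replicate 2. By fold change the start-site and enhancer regions stood at percentiles 65.89 and 76.93 of all tested. Neither passed, at 1.49-fold (log2 0.58 ± 0.28 SE, adjusted p = 0.111) and 1.64-fold (log2 0.72 ± 0.29 SE, adjusted p = 0.0621), although all Reactivated libraries were above all Basal ones at both. Such separation, with Reactivated higher, held at 11 of the 21 regions and at 34.9% of all tested, and the reverse at 1 and at 5.54%. The count of called regions rests on single libraries: it was 10 without Basal replicate 1, Early replicate 1 or Early replicate 2, where 31.6%, 36.6% and 40.7% of all regions passed, and 1 of the 10 without Early replicate 2 was lower, chr15:74516653-74516824. It was 1 without Basal replicate 2, Reactivated replicate 1 or Reactivated replicate 3, where 17.2%, 18.2% and 11.1% of all regions passed, and 2 without Basal replicate 3, where 15.9% did. With the in-region share of each library as a covariate none of the 172143 regions passed, so that fit says nothing about the 21. For the pooled reads of the 21 regions, the difference of 0.61 on the log2 scale became 0.06 when scaled to reads in regions.

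Late against Basal compares collection on day 5, without recall, with a group that, like Early, was collected on the conditioning day. Of the 21 regions 3 passed, 1 higher and 2 lower in Late, where 30% of all tested regions passed, 23.9% higher and 6.03% lower. Groups were free of overlap at 2 regions with Late higher and 4 with Late lower, against 29.6% and 6.3% of all tested. After median-of-ratios scaling 8 of the 21 passed and all 8 were lower in Late, where 15.2% of all regions were called higher and 16.1% lower. That scaling moved the all-region median on the log2 scale from 0.28 to 0.00 here, from 0.39 to 0.03 for Reactivated against Basal and from 0.23 to -0.01 for Early against Basal. On the main scale the strongest change was a fall at chr15:74516653-74516824, the shortest of the 21 at 171 bases, centred 13.7 kb upstream. Basal had 4.20, 4.63, 3.99 and 5.93 RPKM, and Late had 1.51, 2.79, 1.98 and 1.74. The groups did not overlap, and Late was 0.479 times Basal (log2 -1.06 ± 0.27 SE, limma adjusted p = 0.00725). In Early it was scattered, at 3.45, 1.62 and 5.17 RPKM, and in Reactivated it had 3.33, 2.37 and 2.80, below every Basal library. Its rank within the library moved too, from percentiles 97.59 to 99.65 in Basal to 62.42 to 94.33 in Late and 86.03 to 90.90 in Reactivated. It rests on 12 to 55 reads per library, a counting error of 28.9% to 13.5%.

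The other fall was at chr15:74482102-74482403, centred 20.7 kb downstream, from 2.82, 1.29, 1.59 and 1.59 RPKM in Basal to 0.859, 0.648, 0.771 and 0.919 in Late (log2 -0.80 ± 0.30 SE, limma adjusted p = 0.0457), on 5 to 46 reads. The rise was at the 220-base region centred 9.7 kb upstream, which had 4.21, 4.63, 4.41 and 5.61 RPKM in Late (1.59-fold, log2 0.67 ± 0.23 SE, limma adjusted p = 0.0346) on 27 to 76 reads. On this scale that region was thus higher than Basal in both groups collected from day 5 on, and Early, at 2.51, 3.43 and 2.51 RPKM, overlapped Basal. After median-of-ratios scaling neither call held (log2 0.32 in Late and 0.43 in Reactivated, limma adjusted p = 0.115 and 0.076). Under quantile normalization the Late call held (log2 0.81, limma adjusted p = 0.00225). The Reactivated call did not (log2 0.34, limma adjusted p = 0.181). The start-site and enhancer regions had log2 fold changes of -0.32 ± 0.26 SE and -0.36 ± 0.27 SE (limma adjusted p = 0.352 and 0.304). Both were called lower in Late after median-of-ratios scaling, at log2 -0.68 and -0.73 (limma adjusted p = 0.0025 and 0.00419), and with the in-region share as a covariate, at -0.47 and -0.49 (0.0231 and 0.0421). Quantile normalization brought both to 0.00 (adjusted p = 0.982 and 0.994). The number of regions called was 1 without any one of the Late libraries or without Basal replicate 4, where 20.3% to 24.3% of all regions passed.

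**Figure D4:**
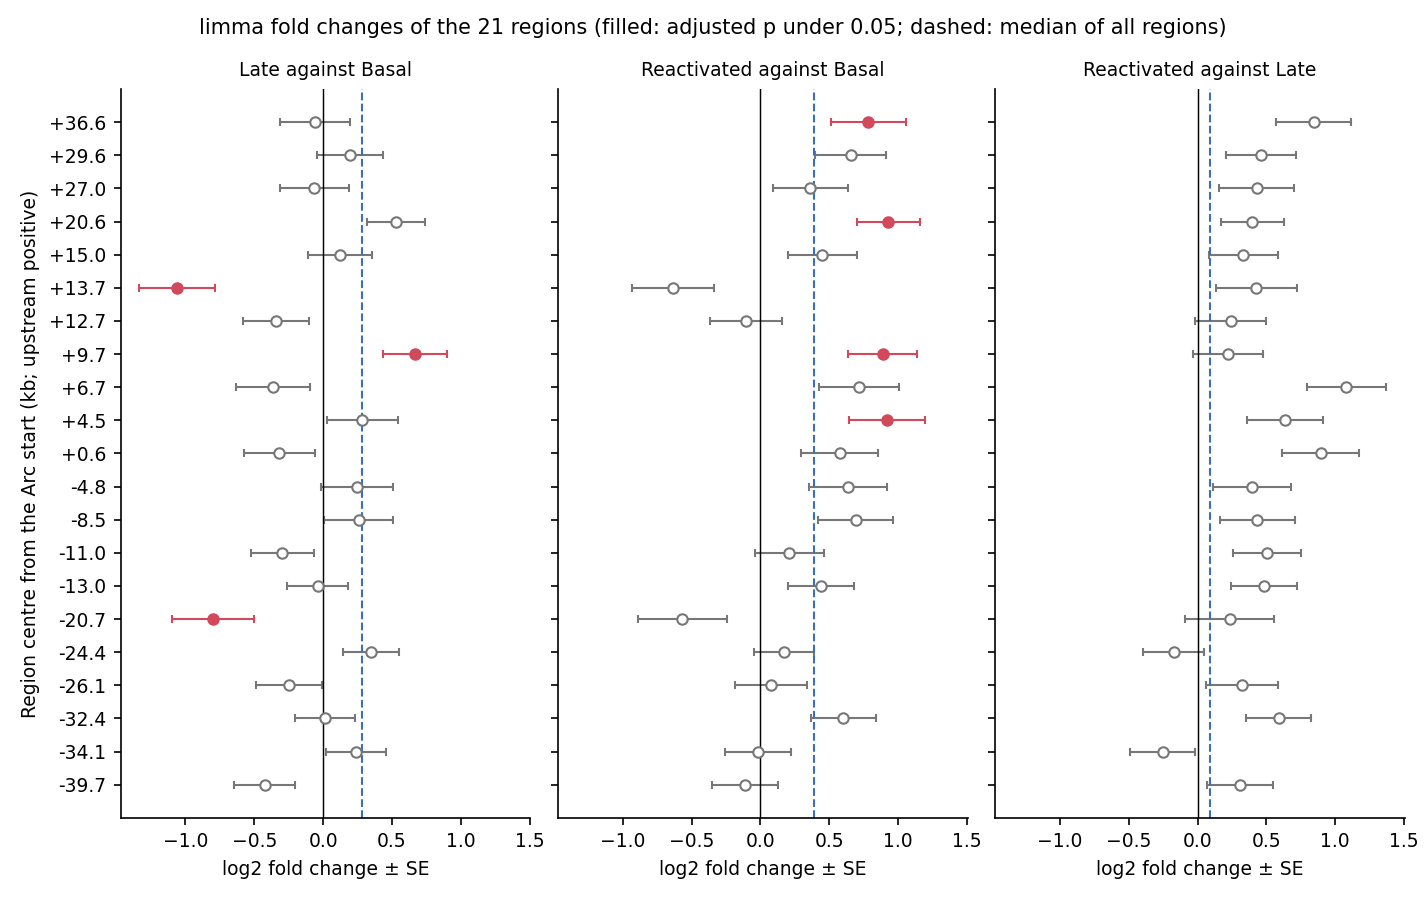
log2 fold change with its limma standard error for each of the 21 regions (rows, by distance of the centre from the Arc start in kb) in 3 comparisons; filled points passed the adjusted threshold and the dashed line is the median of all tested regions. Against Late no region is filled although 19 points lie above 0, and against Basal the filled points of Reactivated all lie upstream of the start.

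Early against Basal compares libraries that share one treatment label. None of the 21 regions passed limma, where 12.4% of all tested regions passed, and none had an unadjusted p under 0.05. By limma voom 0 passed, where 15.8% of all regions did. No region had groups free of overlap, where 15.7% of all tested did with Early higher and 3.71% with Early lower, and the log2 fold changes ran from -0.51 to 0.28 with a median of -0.09, against 0.23 over all tested regions. The start-site region had a log2 fold change of -0.25 and the enhancer region of -0.15 (limma adjusted p = 0.576 and 0.772). After median-of-ratios scaling 2 of the 21 passed, both lower in Early: the start-site region (log2 -0.56, limma adjusted p = 0.0201) and chr15:74491904-74492104 (log2 -0.55, limma adjusted p = 0.0426). Of all regions, 8.16% were then called higher and 7.1% lower, against 10.9% and 1.44% before. On the main scale, the 1722 regions of the top 1% by level had a median of 0.19. Among them the start-site region stood at percentile 7.143 and the enhancer region at 10.8.

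For Late against Early, none of the 21 regions passed limma, where 0.414% of all tested regions passed, and 2 had an unadjusted p under 0.05. By voom 0 passed, where 0.346% of all regions did. Groups were free of overlap at 2 regions, both with Late higher, against 5.21% of all tested upward and 4.6% downward. Without Early replicate 2, 2 regions passed, 1 higher and 1 lower in Late, where 6.34% of all did. The start-site and enhancer regions had log2 fold changes of -0.07 and -0.22 there, which quantile normalization turned to 0.41 and 0.28 (adjusted p = 0.107 and 0.330). Reactivated against Early had no call either, where 1.36% of tested regions passed, with 9 of the 21 at an unadjusted p under 0.05. By voom 0 passed, where 2.73% of all regions did. At 11 regions all Reactivated libraries were above all Early libraries (10.6% of all tested regions, with 6.28% the other way). The 6 regions with a border within 10 kb of the Arc start were all among these 11, with log2 fold changes of 0.62 to 0.88. The start-site and enhancer regions had 0.83 and 0.86 (limma adjusted p = 0.131 and 0.129), and the largest value of the 21 was 0.96 at 36.6 kb (adjusted p = 0.0809). Within the 1722 regions of the top 1% by level, whose median was 0.40, the start-site region stood at percentile 91.52 and the enhancer region at 92.74. Without Early replicate 2, 5 of the 21 passed, all higher, where 17.3% of all tested regions did.

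The remaining regions can be given by side. Near the downstream end of Arc, chr15:74497936-74498470 had 4.17 ± 1.25 RPKM in Basal, 4.21 ± 1.14 in Early, 4.90 ± 0.338 in Late and 6.69 ± 1.67 in Reactivated. Its neighbour chr15:74494283-74494755 had 4.69 ± 0.776, 4.65 ± 1.15, 5.68 ± 0.729 and 7.87 ± 1.14 RPKM in the same groups. Both were highest in Reactivated by RPKM, as were chr15:74491904-74492104, chr15:74489588-74490347 and chr15:74470433-74470846, whose Reactivated means were 4.47, 4.10 and 4.23 RPKM against 2.65 to 3.00 in Late. This order depends on the scaling. Under quantile normalization the log2 fold change of Reactivated against Late was -0.36 at chr15:74497936-74498470 and -0.50 at chr15:74494283-74494755 (limma adjusted p = 0.277 and 0.157). It was 0.14, 0.16 and 0.28 at the other regions just named. At the far downstream end Reactivated was not the highest by RPKM. There chr15:74462661-74463942 and chr15:74468526-74469336 had Reactivated means of 1.97 and 1.72 RPKM, inside the range of their other group means (1.50 to 2.18 and 1.61 to 2.14). At chr15:74476752-74477004 Reactivated replicate 1 alone was high, at 4.16 RPKM against 1.97 and 1.39 in the other Reactivated libraries. Low values were also found at chr15:74478378-74478807, with group means of 1.10 to 1.73 RPKM.

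Upstream, chr15:74515120-74516222 had its highest mean in Basal, 2.61 ± 0.469 RPKM, and 2.43 ± 0.682 in Reactivated. The regions chr15:74517633-74518347, chr15:74529756-74530307 and chr15:74531934-74533238 were highest in Reactivated, with 2.16 ± 0.268, 3.77 ± 0.268 and 5.53 ± 0.629 RPKM. Over all 21, the highest mean was in Reactivated at 15 regions, in Basal at 4, in Late at 2 and in Early at 0. The lowest mean was in Late at 9, in Basal at 6 and in Early at 6. The matching shares over all regions were not counted. All tested regions also leaned to Reactivated, with median log2 fold changes of 0.39 against Basal, 0.11 against Early and 0.09 against Late. Taken as all reads of the 21 regions over their total length, accessibility was 5.38 ± 0.540 RPKM in Reactivated (n = 3), 3.52 ± 0.706 in Basal (n = 4), 3.33 ± 0.0996 in Late (n = 4) and 3.25 ± 0.689 in Early (n = 3). Per 1000000 reads in regions the 21 regions together held 393 ± 17.7, 376 ± 18.4, 293 ± 5.63 and 294 ± 94.3 reads. On that scale Reactivated and Basal overlapped and both were above every Late library.

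How closely the regions followed each other was described by Pearson's r of log2(RPKM + 0.5) over the 14 libraries, which share depth and group structure. The start-site and enhancer regions had r = 0.975. Next to the start-site region came the region at 36.6 kb (r = 0.912) and chr15:74491904-74492104 on the downstream side (0.822), and the lowest was chr15:74478378-74478807 (-0.10). Of all tested regions outside the window, the most like the start-site region was chr15:74551177-74553341 (r = 0.970), which lies on the same chromosome, 48.2 kb upstream of the Arc start and 11.2 kb beyond the border of the window. It was also the most like the enhancer region (r = 0.948). Its means were 8.42 RPKM in Reactivated, 5.23 in Basal, 4.18 in Early and 3.99 in Late, the same order as at the Arc start. The next most like the start-site region were chr4:106233113-106234118 (r = 0.961) and chr6:51418852-51421279 (r = 0.955), and the next most like the enhancer region chr11:52173699-52175467 and chr2:179333386-179333987 (r = 0.943 for both).

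The borders of the window cut through a continuous row of regions. Just inside stood chr15:74462661-74463942 and chr15:74539051-74540230, with 1.97 and 8.25 RPKM in Reactivated and 1.50 and 4.39 in Late. Just outside stood chr15:74452844-74453967 and chr15:74541801-74542009, with 3.66 and 6.42 RPKM in Reactivated and 2.39 and 5.01 in Late.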

How the data were processed

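ATAC-seq values of 14 libraries were analysed. The authors deposited RPKM values for one list of regions on mm9, named with Bowtie2 2.0, SAMtools, MACS2, DiffBind 1.16.327 and DESeq2 per the submitters' processing notes, without role or order. Peak calling on single or pooled libraries, duplicate removal, cut-site shifts and whether starts count from 0 or 1 are not given in the sources used here. RPKM times region length gave whole multiples of 1 step per library for 100% of values (tolerance 0.01), from which reads and totals were recovered. For the percent of reads in regions, 95% Wilson intervals reached at most 0.0119 points from the value and cover counting error only.

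Values were tested as log2(RPKM + 0.5) without the 10% of regions lowest in mean RPKM, in 1 limma fit of all groups (limma 3.58.1, R 4.3.3; trend, robust, 2-sided, Benjamini-Hochberg within each of 6 comparisons over 172143 regions). The fit was tested on simulated data with a single spread for all regions and no shift of scale or compression between groups. That test says nothing about those features of the real libraries. Other steps used Python 3.11.15 with scipy 1.17.1. All regions in the window are named; the start-site region holds the Arc start, the enhancer region is nearest to 7 kb upstream, and the 3 regions outside with the highest r to each are named. Percentiles, shares of the locus and the top 1% by level were chosen after seeing the data. The members and lists were chosen with earlier results of these data known. A motif search planned for the Arc promoter was not run, and the planned edgeR test was not run because the deposited values are RPKM.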

Additional observations from a re-analysis of the deposited data

Results flagged for a closer look

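Within groups of 4 libraries, 2 of 46 sets of values held a library far from the others by the gap to its nearest neighbour, and chance alone gives about 1 in 20. At chr15:74517633-74518347 Basal replicate 4 had 0.852 RPKM against 1.60 to 1.73 in the other Basal libraries. At chr15:74531934-74533238 Basal replicate 1 had 4.88 RPKM against 2.74 to 3.02. Neither region passed the limma test in any comparison on the main scale.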

How the results depend on the processing

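Numbers of the 21 regions called moved with the setting. The percent of all tested regions called in the same setting stands in brackets. Median-of-ratios scaling gave 2 for Early against Basal (15.3%), both lower, 8 for Late against Basal (31.3%), all lower, 2 for Reactivated against Basal (19.6%), 1 of them lower, 3 for Reactivated against Early (2.88%) and 3 for Reactivated against Late (1.13%), all higher. Quantile normalization gave 7 for Late against Basal (31.8%), 4 higher and 3 lower, 1 for Reactivated against Basal (16.3%), which was lower and none of the 4 called otherwise, and 3 for Late against Early (2.37%), all higher. The in-region read share as a covariate gave 5 for Late against Basal (21.7%), 2 higher and 3 lower, 1 for Late against Early (4.01%), 4 for Reactivated against Early (2.56%) and 2 for Reactivated against Late (0.936%), all higher. It gave 0 for Reactivated against Basal, where no region of all 172143 was called. Averaging Late to 1 sample gave 2 for Reactivated against Basal (19.5%) and 0 for Late against Basal, where again no region of all was called; these 0 counts say nothing about the 21 regions. Fits of 2 groups alone gave 5 for Reactivated against Late (3.9%), and voom on recovered reads, chosen after seeing the data, 7 for Reactivated against Basal (33.4%), all higher. The cause was not tested. A fit with the replicate number as a block gave 2 for Reactivated against Basal (20.8%) and 2 for Late against Basal (26.2%). Same-numbered libraries did not deviate together (r = -0.2603 to 0.06868 over 19 pairs), and 0 of 14 libraries correlated best with their own number. Leaving out 1 library gave 1 to 4 calls for Late against Basal (20.3% to 38.4%) and 1 to 10 for Reactivated against Basal (11.1% to 40.7%). It gave 0 to 2 for Late against Early (0.102% to 6.34%) and 0 to 5 for Reactivated against Early (0.00349% to 17.3%). It gave 0 to 1 for Reactivated against Late (0.0877% to 0.423%) and 0 for Early against Basal (0.713% to 26.7%).

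Set against the mean of the other 20 regions in place of the enhancer region, the start-site ratio differed by -0.28 for Late against Basal, 0.22 for Reactivated against Basal, -0.13 for Late against Early, 0.37 for Reactivated against Early and 0.50 for Reactivated against Late, each of opposite sign. Leaving out 1 library moved the Reactivated against Early ratio between -0.077 and 0.028. Quantile normalization turned signs at the start-site region for Late against Basal (0.0047), Late against Early (0.41), Reactivated against Basal (-0.0097) and Reactivated against Late (-0.014), at the region centred 4.5 kb upstream for Reactivated against Late (-0.056), and at the enhancer region for Late against Basal (0.0019) and Late against Early (0.28). For Reactivated against Late it also turned signs at chr15:74494283-74494755 (-0.50), chr15:74497936-74498470 (-0.36) and chr15:74512541-74512761 (-0.46). Sign changes at other regions are not listed. Leaving out 1 library moved the start-site region for Late against Early between -0.256 and 0.058 and the enhancer region for Early against Basal between -0.293 and 0.022. Of the 7 calls, the fall of the 171-base region in Late held in 23 of 24 settings. It was lost only with Late averaged to 1 sample, a setting that says nothing here. The rise at 20.6 kb in Reactivated held in 22. It was lost under quantile normalization (limma adjusted p = 0.0504) and with the in-region share as a covariate, where no region of all was called. The other calls held in 12 to 18. Some settings leave out a library of a group outside the comparison, which moves the shared spread but not the fold change. Reads limit the short regions, where counting error reached 44.7%. The edgeR test was not run.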

Other observations

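Beyond the window, the 22 regions in the next 80 kb downstream had a median log2 fold change of 0.57 for Reactivated against Late and the 9 in the next 80 kb upstream one of 0.31, against 0.43 over the 21 regions around Arc, and none of them passed limma in that comparison. The highest of them in Reactivated, chr15:74424229-74425317, had 20.2 ± 3.56 RPKM in Reactivated (SD, n = 3), 7.58 ± 0.126 in Late (n = 4), 8.24 ± 1.43 in Basal (n = 4) and 8.84 ± 1.94 in Early (n = 3), which is 1.34 on the log2 scale for Reactivated against Late (limma adjusted p = 0.0509). For Late against Basal, 12 of the 22 downstream regions passed, 10 of them lower in Late, where 30% of all tested regions passed.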
